A study of Homo sapiens with 12 samples.

Results

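The genes described here are 35 known transcriptional targets of the tumour suppressor p53, taken by name as known targets with no threshold on a measured value, out of 19868 protein-coding genes. They were followed by RNA sequencing (12 libraries) in the human acute myeloid leukaemia lines Molm-14 and HL-60, after 36 h without or with duocarmycin SA (DSA), which binds the minor groove of DNA and alkylates adenines there. Molm-14 cells received no DSA, 11.1 pM or 100 pM, and HL-60 cells received no DSA, 112.7 pM or 500 pM, with 2 libraries in each of the 6 groups. The labels call the controls untreated, whereas the study's methods name a vehicle. Molm-14 was taken as p53 wild type and HL-60 as having lost p53, a status that was not tested here. The lines grew in different media and serum (RPMI for Molm-14 and IMDM for HL-60). With 2 lines the effects of genotype, medium and serum cannot be told apart. All 35 genes matched 1 identifier each, and 34 were among the 13422 genes that passed the filter on low counts.

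In unstressed cells p53 is kept low by MDM2, a ubiquitin ligase that marks it for degradation. The kinases ATM, ATR, CHEK1 and CHEK2 act on p53 and MDM2 after DNA damage, and the protein then accumulates and activates genes of repair, cell cycle arrest, apoptosis, autophagy and metabolism, among them MDM2 itself. Many of these genes are also read by other transcription factors, including the p53 relatives p63 and p73.

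Because the genes are joined by one transcription factor, the DNA around their start sites was searched for p53 response elements, which consist of a pair of p53 half-sites of 10 bases each. With the half-sites adjoining and at most 1 mismatch, an element lay between 1000 bases before and 3000 bases after the start (canonical transcript of GENCODE release 44) of 6 of the 35 genes (17.1%), against 54 of the 13422 genes tested (0.402%). The C and the G at the core of each half-site had to match, so a mismatch was allowed only at the other bases. The genes were picked as known targets, so this share partly follows from the choice. The element reads the same on both strands, and no other motif was searched. The 5 that can be shown are printed here 5′ to 3′ on the strand of the gene (hg38), each with 5 bases on either side, and capitals mark the 20 bases of the element.
ZMAT3 (intron 1, minus strand, chr3:179070188-179070207, 0 mismatches): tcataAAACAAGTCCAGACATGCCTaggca
CCNG1 (intron 1, plus strand, chr5:163437926-163437945, 1 mismatch): tgtgaGCACAAGCCCAGGCTAGTCCgaggc
DDB2 (edge of the untranslated first exon, plus strand, chr11:47214969-47214988, 1 mismatch): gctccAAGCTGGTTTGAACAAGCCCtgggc
EDA2R (intron 1, minus strand, chrX:66638713-66638732, 1 mismatch): tctgaGAACATGCCTGGACGTGTCCaacaa
GADD45A (intron 3, plus strand, chr1:67686775-67686794, 1 mismatch): gtacaGAACATGTCTAAGCATGCTGgggac
The sixth gene was RRM2B. A match describes the letters in this window only, and its absence from the other genes says nothing about p53.

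Levels are given as CPM, read counts relative to the size of the library, with the TMM factors of edgeR, for each library in the order of the replicate numbers.

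Total expected counts ran from 21177424 to 63927449 per library, and the treated HL-60 libraries included the shallowest. The Molm-14 markers HOXA9, HOXA10, MEIS1 and FLT3 were all lower in HL-60 controls, whereas of ELANE, AZU1, PRTN3 and MYC, listed for HL-60, only 2 were higher there. Markers of mature granulocytes and monocytes moved with the dose in both lines, with 9 of 11 tested higher and 1 lower at the higher dose of either line. Of all genes tested, 22.9% were higher and 21.9% lower at that dose in Molm-14, while HL-60 cells had 35.8% and 37.8%. The summed level of the 12 listed markers of mature cells went from between 191.2 and 194.6 CPM to between 338 and 341 in Molm-14. In HL-60 this sum went from between 440.5 and 441 to between 926 and 935. At most 2 of the 12 markers were at 0 in any library. The share of mitochondrially encoded reads also went from at most 1.68% in untreated to at least 2.72% in 100 pM Molm-14 libraries, and from at most 2.47% to at least 4.64% in HL-60 at 500 pM. The part of either in the values that follow was not tested. In such bulk libraries a change in the share of cells and a change in RNA per cell cannot be told apart. No source says that the 2 libraries of a group came from separate cultures, so p-values measure the spread between these libraries, which may be technical.

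With 100 pM DSA the p53 target genes rose together in Molm-14 cells. Of 34 tested, 32 were higher at an edgeR adjusted p under 0.05, against 22.9% of all genes tested, and 0 were lower, against 21.9%. The count of lower genes was also 0 at an unadjusted p under 0.05 and with DESeq2 and limma-voom. The median log2 fold change was 0.78 for these genes and 0.00 for all genes tested. A fold over 2 was reached by 12 of them, against 3.29% of all genes.

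In HL-60 cells the genes were called in both directions, as were all genes tested. At 500 pM 20 were higher, against 35.8% of all genes tested, and 8 were lower, against 37.8%, with a median of 0.46 where that of all genes was 0.00. A fold over 2 upward was reached by 10, against 16.5% of all genes. At 112.7 pM 15 were higher (24.2% of all genes) and 7 lower (27.4%), with a median of 0.18, and 3 passed a fold of 2 upward (5.57%). PERP is among the genes called higher at both doses, and it passed the filter on low counts only through these treated groups. With scaling by total counts alone the 112.7 pM counts were 18 higher and 5 lower. Single calls at 112.7 pM were weaker, and those of GADD45A, SUSD6, TP53I3, DRAM1 and PERP were lost without 1 library (largest adjusted p 0.205, 0.219, 0.154, 0.0827 and 0.0733). The 112.7 pM calls of AEN, PLK3 and TIGAR were also lost under alternatives that are given with each gene. In each line both doses were compared with the same 2 untreated libraries, so their results are not independent of each other.

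**Figure D1:**
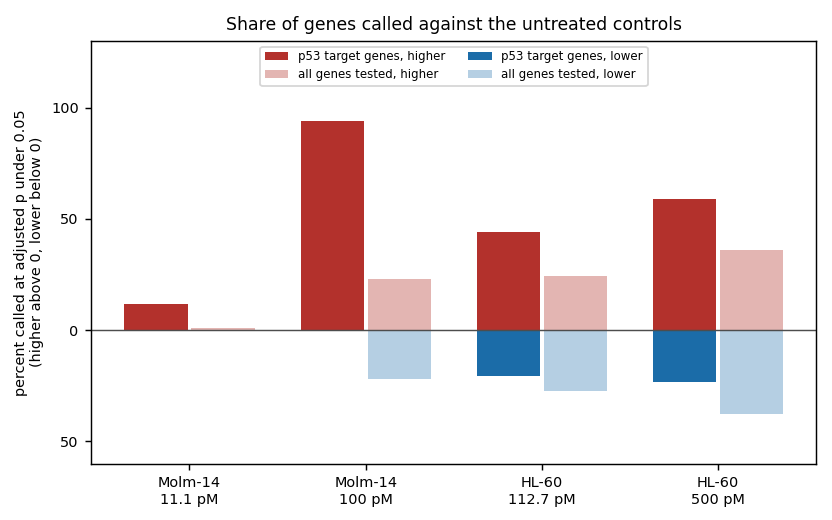
Share of genes called at an adjusted p under 0.05 (vertical axis, percent, higher genes above 0 and lower genes below 0) in 4 comparisons with untreated cells, for the 34 p53 target genes (dark bars) and all 13422 genes tested (pale bars). The dark bar of Molm-14 cells at 100 pM stands for 32 genes higher and 0 lower, and that of HL-60 cells at 500 pM for 20 higher and 8 lower.

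Side by side at the higher doses, 18 of the 34 genes were called higher in both lines, against 14.3% of all genes tested. Another 8 were higher in Molm-14 and lower in HL-60 cells (3.81%), 6 were higher in Molm-14 and not called in HL-60 cells (4.84%), and NINJ1 and PERP were higher in HL-60 cells and not called in Molm-14 (18%). PERP passed the filter only through the treated HL-60 groups. These doses differ between the lines, so the values are only set beside each other.

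**Figure D2:**
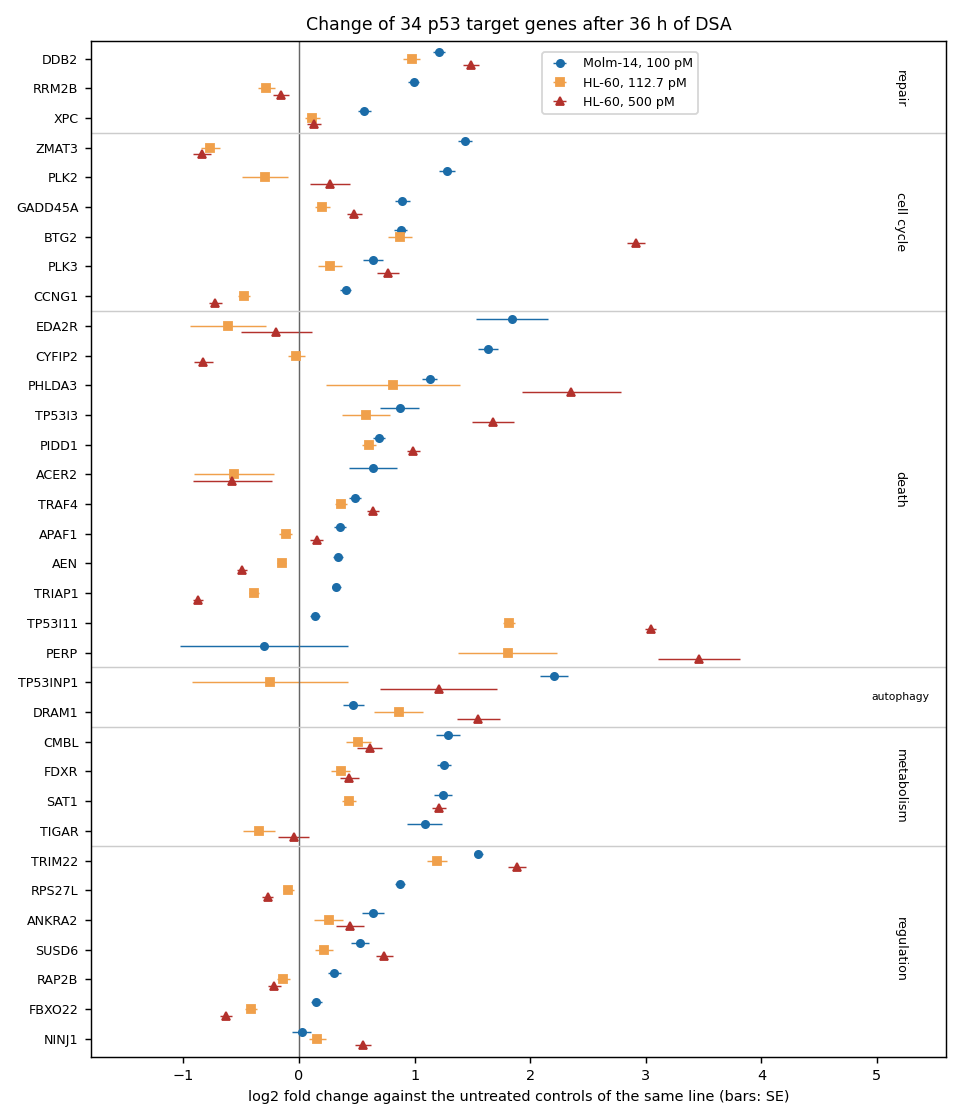
Log2 fold change against untreated cells of the same line (horizontal axis, bars ± SE) of the 34 p53 target genes tested, grouped by role, in Molm-14 cells at 100 pM (circles) and HL-60 cells at 112.7 pM (squares) and 500 pM (triangles), from 2 libraries per group. The circles lie right of 0 for every gene but PERP, at −0.30, whereas ZMAT3, CCNG1, CYFIP2, AEN, TRIAP1, RPS27L, RAP2B and FBXO22 have triangles left of 0 that passed the test.

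The role groups are small, and their counts are to be read against 22.9% of all genes higher and 21.9% lower in Molm-14 at 100 pM and 35.8% higher and 37.8% lower in HL-60 at 500 pM. The repair genes were higher in Molm-14 cells, 3 of 3, and only DDB2 also rose in HL-60 cells. DDB2 encodes the small subunit of the damage sensor that starts nucleotide excision repair on chromatin, and carries an element at its start. In Molm-14 cells DDB2 stood at 36.9 and 36.6 CPM untreated, 45.9 and 42.8 at 11.1 pM and 84.1 and 86.2 at 100 pM. HL-60 libraries held DDB2 at 9.31 and 9.33 CPM untreated, 17.1 and 19.3 at 112.7 pM and 26.0 and 26.4 at 500 pM. The levels climbed with each dose in both lines without overlap between doses, and HL-60 cells at 500 pM still lay under untreated Molm-14 cells. The change was 1.21, SE 0.051 on the log2 scale in Molm-14 at 100 pM and 1.49, SE 0.068 in HL-60 at 500 pM (adjusted p = 4.67e-13). XPC, the sensor of the general branch of the same pathway, was at 36.6 and 34.4 CPM untreated, 35.5 and 35.1 at 11.1 pM and 53.5 and 51.5 at 100 pM in Molm-14 cells. HL-60 libraries held XPC at 24.5 and 24.6 CPM untreated, 24.8 and 28.1 at 112.7 pM and 26.0 and 27.6 at 500 pM. In HL-60 the treated libraries lay barely above the untreated ones, and neither dose passed the test (log2 change 0.13, SE 0.062, adjusted p = 0.0686 at 500 pM). Both doses passed with scaling by RLE factors (adjusted p = 0.0135 at 500 pM and 0.0342 at 112.7 pM) or by total counts alone (0.000159 and 0.0157). RRM2B, the p53-inducible subunit of ribonucleotide reductase, which supplies nucleotides for repair, was at 43.4 and 44.2 CPM untreated, 44.6 and 46.8 at 11.1 pM and 86.3 and 88.0 at 100 pM in Molm-14 cells. HL-60 libraries held RRM2B at 15.9 and 14.2 CPM untreated, 12.2 and 12.3 at 112.7 pM and 13.2 and 13.6 at 500 pM. The gene rose in Molm-14 (log2 change 0.99, SE 0.049, adjusted p = 1.04e-11), fell slightly in HL-60 at 112.7 pM (log2 change −0.28, SE 0.073, adjusted p = 0.00332) and did not pass at 500 pM (adjusted p = 0.0583).

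All 6 genes of cell cycle control were higher in Molm-14 cells at 100 pM, and in HL-60 cells at 500 pM 3 were higher and 2 lower, where 35.8% and 37.8% of all genes were. ZMAT3 encodes a zinc finger protein that binds RNA and regulates splicing, and holds the element with 0 mismatches. In Molm-14 cells ZMAT3 stood at 25.1 and 23.9 CPM untreated, 25.1 and 28.1 at 11.1 pM and 65.4 and 67.2 at 100 pM. HL-60 libraries held ZMAT3 at 22.3 and 21.6 CPM untreated, 13.5 and 12.4 at 112.7 pM and 11.2 and 13.0 at 500 pM. The untreated lines were close, and with DSA they lay apart, higher in Molm-14 (log2 change 1.44, SE 0.062, adjusted p = 1.41e-12) and lower in HL-60 at both doses (log2 change −0.77, SE 0.078, adjusted p = 2.11e-07 at 112.7 pM and −0.84, SE 0.078 at 500 pM). CCNG1, cyclin G1, which recruits a phosphatase to MDM2, was at 172 and 171 CPM untreated, 164 and 177 at 11.1 pM and 223 and 231 at 100 pM in Molm-14 cells. HL-60 libraries held CCNG1 at 113 and 103 CPM untreated, 82.0 and 73.8 at 112.7 pM and 64.9 and 65.8 at 500 pM. Again the lines moved in opposite directions, with a rise of 0.41, SE 0.048 in Molm-14 and changes of −0.48, SE 0.053 and −0.72, SE 0.054 in HL-60 cells, and the HL-60 groups did not overlap. PLK2, a polo-like kinase of the stress response, was at 14.5 and 14.4 CPM untreated, 16.7 and 15.8 at 11.1 pM and 34.7 and 35.4 at 100 pM in Molm-14 cells. HL-60 libraries held PLK2 at 1.37 and 1.36 CPM untreated, 1.11 and 1.11 at 112.7 pM and 1.92 and 1.44 at 500 pM. It rose in Molm-14 (log2 change 1.28, SE 0.071, adjusted p = 5.44e-11), and from its low level in HL-60 neither dose passed (adjusted p = 0.230 at 500 pM).

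GADD45A, BTG2 and PLK3 of this group rose in both lines. GADD45A, a stress sensor that also restrains the G2/M transition, was at 12.7 and 13.1 CPM untreated, 16.2 and 15.8 at 11.1 pM and 24.1 and 23.9 at 100 pM in Molm-14 cells. HL-60 libraries held GADD45A at 16.8 and 17.9 CPM untreated, 19.2 and 20.7 at 112.7 pM and 24.2 and 24.4 at 500 pM. It rose by 0.89, SE 0.066 on the log2 scale in Molm-14 and by 0.48, SE 0.063 in HL-60 at 500 pM, and ended at about the same level in both. BTG2, an antiproliferative gene that promotes mRNA deadenylation, was at 42.8 and 44.5 CPM untreated, 51.2 and 48.6 at 11.1 pM and 84.3 and 76.4 at 100 pM in Molm-14 cells. HL-60 libraries held BTG2 at 5.10 and 4.70 CPM untreated, 8.29 and 9.38 at 112.7 pM and 36.8 and 36.7 at 500 pM. In HL-60 cells the 500 pM libraries were far above the 112.7 pM libraries, which were above the untreated ones (log2 change 2.92, SE 0.078, adjusted p = 2.79e-16 at 500 pM), but remained under untreated Molm-14. PLK3, another polo-like kinase, was at 14.2 and 13.8 CPM untreated, 15.3 and 15.8 at 11.1 pM and 21.8 and 21.8 at 100 pM in Molm-14 cells. HL-60 libraries held PLK3 at 7.67 and 7.86 CPM untreated, 9.69 and 9.11 at 112.7 pM and 15.1 and 11.8 at 500 pM. The rises were 0.64, SE 0.084 in Molm-14 and 0.77, SE 0.096 in HL-60 at 500 pM, while the smaller HL-60 value at 112.7 pM (adjusted p = 0.0372) was lost with limma-voom (0.0556) and without any 1 of the 4 libraries compared.

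**Figure D3:**
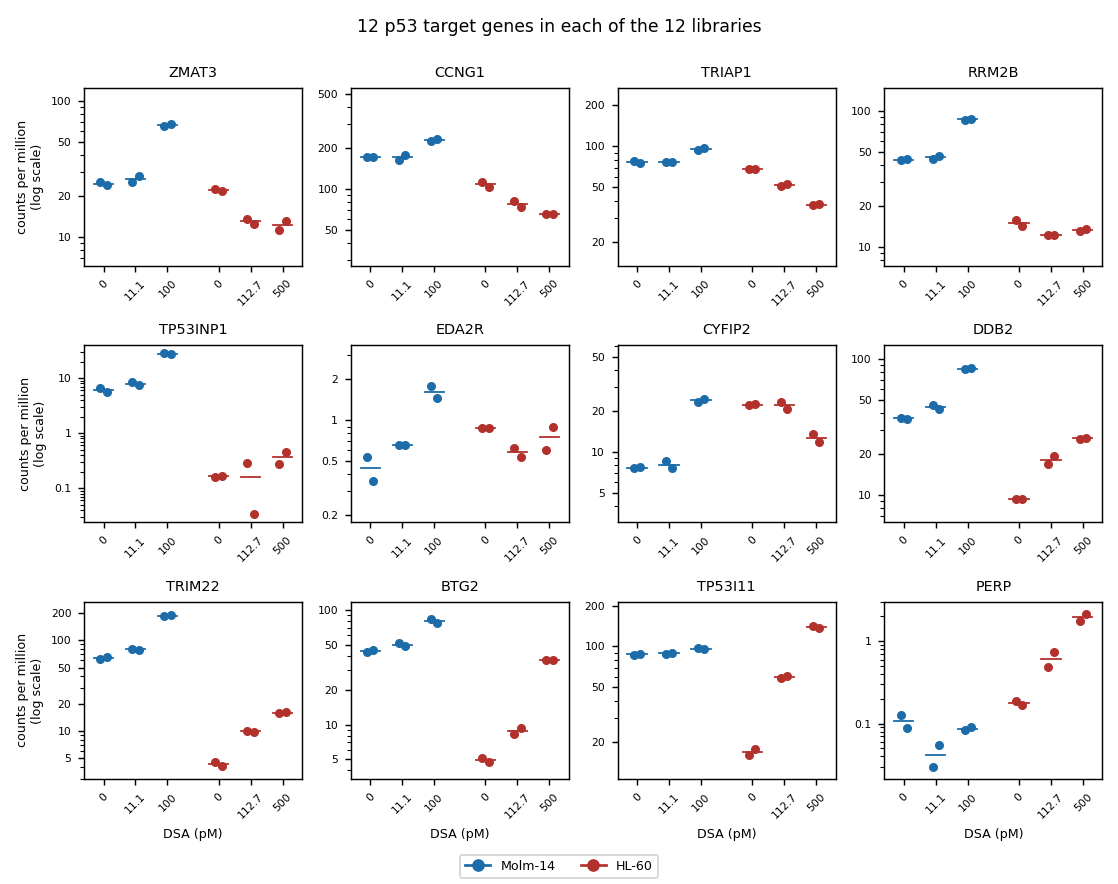
CPM (vertical axes, log scale) of 12 p53 target genes in each of the 12 libraries against DSA dose in pM (horizontal axes), with Molm-14 in blue, HL-60 in red, a point per library and a line at the mean of the 2 libraries. ZMAT3 and CCNG1 go up in Molm-14 and down in HL-60 cells, and TP53I11 reaches 142 and 137 CPM in HL-60 at 500 pM, above every Molm-14 library.

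Of the 12 genes linked to cell death, 11 were higher in Molm-14 cells at 100 pM (22.9% of all genes), and in HL-60 cells at 500 pM 7 were higher (35.8%) and 3 lower (37.8%). EDA2R, a death receptor of the TNF receptor family with an element in intron 1, was at 0.537 and 0.359 CPM untreated, 0.656 and 0.655 at 11.1 pM and 1.77 and 1.45 at 100 pM in Molm-14 cells, from 17 and 12 counts untreated and 64 and 48 at 100 pM. HL-60 libraries held EDA2R at 0.885 and 0.882 CPM untreated, 0.627 and 0.538 at 112.7 pM and 0.609 and 0.891 at 500 pM. The 100 pM Molm-14 libraries lay above all other libraries of the gene (log2 change 1.84, SE 0.31, adjusted p = 8.06e-05), and in HL-60 the treated and untreated values overlapped at 500 pM (adjusted p = 0.577). CYFIP2, which belongs to the WAVE complex that regulates actin and has been linked to apoptosis, was at 7.62 and 7.71 CPM untreated, 8.56 and 7.56 at 11.1 pM and 23.3 and 24.5 at 100 pM in Molm-14 cells. HL-60 libraries held CYFIP2 at 22.2 and 22.3 CPM untreated, 23.4 and 20.6 at 112.7 pM and 13.4 and 11.9 at 500 pM. Molm-14 cells at 100 pM reached the level of untreated HL-60 cells (log2 change 1.64, SE 0.086, adjusted p = 2.06e-11), and HL-60 cells at 500 pM fell below it (log2 change −0.83, SE 0.080, adjusted p = 2.40e-08), whereas at 112.7 pM the groups overlapped. PHLDA3, a repressor of the survival kinase AKT, was at 30.2 and 29.6 CPM untreated, 31.6 and 31.7 at 11.1 pM and 69.0 and 61.7 at 100 pM in Molm-14 cells. In HL-60 it was nearly silent, with 2 and 12 counts untreated, 5 and 8 at 112.7 pM and 12 and 29 at 500 pM. It rose in Molm-14 (log2 change 1.13, SE 0.068, adjusted p = 1.78e-10) and, on these few counts, in HL-60 at 500 pM (log2 change 2.36, SE 0.43, adjusted p = 6.58e-05).

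TP53I3, a quinone oxidoreductase linked to oxidative stress, was at 2.72 and 2.42 CPM untreated, 2.86 and 2.7 at 11.1 pM and 4.26 and 5.15 at 100 pM in Molm-14 cells. HL-60 libraries held TP53I3 at 1.18 and 1.46 CPM untreated, 2.22 and 1.85 at 112.7 pM and 4.59 and 4.06 at 500 pM. The gene rose in Molm-14 (0.87, SE 0.17) and in HL-60 at 500 pM (1.68, SE 0.18, adjusted p = 1.07e-07), where the groups did not overlap. It overlaps FAM228B, which changed by 0.76 in Molm-14 and by −0.41 in HL-60 at 500 pM, and no source read here states a strand setting for the counting, so some reads may be shared. PIDD1, a death domain protein that forms the PIDDosome with caspase-2, was at 44.5 and 48.4 CPM untreated, 49.9 and 53.8 at 11.1 pM and 74.6 and 75.5 at 100 pM in Molm-14 cells. HL-60 libraries held PIDD1 at 27.4 and 27.1 CPM untreated, 41.0 and 41.8 at 112.7 pM and 57.1 and 51.7 at 500 pM. PIDD1 rose without overlap between treated and untreated libraries, by 0.69, SE 0.054 in Molm-14 at 100 pM and by 0.60, SE 0.060 and 0.99, SE 0.058 at the HL-60 doses. APAF1, the scaffold of the apoptosome, was at 97.5 and 99.8 CPM untreated, 100.2 and 102 at 11.1 pM and 121 and 131 at 100 pM in Molm-14 cells. HL-60 libraries held APAF1 at 55.4 and 51.4 CPM untreated, 51.0 and 47.6 at 112.7 pM and 56.8 and 61.2 at 500 pM. The rise of 0.35, SE 0.049 passed in Molm-14, and the HL-60 value at 500 pM (log2 change 0.15, SE 0.054, adjusted p = 0.0169) was lost without the second untreated library (adjusted p = 0.221) or the second 500 pM library (adjusted p = 0.259).

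AEN and TRIAP1 belonged to the genes that moved in opposite directions. AEN, an exonuclease that enhances apoptosis, was at 81.2 and 80.2 CPM untreated, 83.7 and 79.8 at 11.1 pM and 104 and 100 at 100 pM in Molm-14 cells. HL-60 libraries held AEN at 105 and 101 CPM untreated, 93.5 and 91.5 at 112.7 pM and 73.0 and 72.8 at 500 pM. The 100 pM Molm-14 libraries lay above the untreated ones (log2 change 0.34, SE 0.040, adjusted p = 1.42e-06), and the 500 pM HL-60 libraries lay below the 112.7 pM libraries, which lay below the untreated ones (log2 change −0.49, SE 0.041, adjusted p = 2.39e-09 at 500 pM). The lower call of AEN at 112.7 pM was lost with DESeq2 (adjusted p = 0.106) and with total counts alone (adjusted p = 0.110). TRIAP1, a small protein that inhibits the apoptosome and moves lipids in mitochondria, was at 77.6 and 75.6 CPM untreated, 76.6 and 77.5 at 11.1 pM and 94.6 and 96.6 at 100 pM in Molm-14 cells. HL-60 libraries held TRIAP1 at 68.7 and 67.8 CPM untreated, 50.9 and 53.2 at 112.7 pM and 36.9 and 37.5 at 500 pM. Its fall in HL-60 at 500 pM was the largest of the 34 genes tested (log2 change −0.87, SE 0.044, adjusted p = 1.89e-12), while the Molm-14 libraries rose by 0.32, SE 0.039. ACER2, a ceramidase of the Golgi, was at 1.77 and 1.88 CPM untreated, 1.82 and 2.13 at 11.1 pM and 2.99 and 2.71 at 100 pM in Molm-14 cells. HL-60 libraries held ACER2 at 0.617 and 0.662 CPM untreated, 0.337 and 0.504 at 112.7 pM and 0.562 and 0.338 at 500 pM. The Molm-14 rise (log2 change 0.64, SE 0.21, adjusted p = 0.0180) was lost with DESeq2 (adjusted p = 0.157) and without either untreated library (adjusted p = 0.0971 and 0.0590) or the first 100 pM library (0.123), and no HL-60 change passed.

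TP53I11 stood out by its rise in HL-60 cells, where PERP rose from few counts. PERP, a membrane protein linked to apoptosis and desmosomes, had 4 and 3 counts in untreated Molm-14 cells, 1 and 2 at 11.1 pM and 3 and 3 at 100 pM. In HL-60 cells it had 7 and 10 counts untreated, 10 and 22 at 112.7 pM and 38 and 70 at 500 pM. It passed the filter only through the treated HL-60 groups, so its rise there (log2 change 3.46, SE 0.36, adjusted p = 5.52e-08) follows in part from the filter, and in Molm-14 cells no library had more than 4 counts. TP53I11, named for its induction by p53, was at 87.2 and 87.5 CPM untreated, 88.6 and 90.3 at 11.1 pM and 96.9 and 95.3 at 100 pM in Molm-14 cells. HL-60 libraries held TP53I11 at 16.0 and 17.5 CPM untreated, 58.5 and 60.4 at 112.7 pM and 142 and 137 at 500 pM. Untreated HL-60 cells lay far under Molm-14 cells and exceeded them at 500 pM (log2 change 3.04, SE 0.048, adjusted p = 3.53e-19, a fold of 8.25), while the Molm-14 change was a fold of 1.10 (log2 change 0.14, SE 0.041, adjusted p = 0.0109) that was lost without either untreated library or the first 100 pM library (adjusted p = 0.0657, 0.0552 and 0.0763). TRAF4, an adaptor of the TNF receptor family, rose from 39.4 and 41.0 to 56.0 and 56.4 CPM in Molm-14 (0.48, SE 0.049) and from 27.4 and 28.4 to 44.9 and 42.3 CPM in HL-60 cells (0.64, SE 0.052) at the higher doses.

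Autophagy and mitochondrial quality control were represented by TP53INP1, DRAM1 and SPATA18. TP53INP1, a stress protein that promotes autophagy and p53 activity, was at 6.51 and 5.59 CPM untreated, 8.47 and 7.37 at 11.1 pM and 28.5 and 27.3 at 100 pM in Molm-14 cells. In HL-60 it had 6 and 10 counts untreated, 6 and 1 at 112.7 pM and 6 and 15 at 500 pM. Its rise in Molm-14 was the largest of the 34 genes tested there (log2 change 2.21, SE 0.12, adjusted p = 5.70e-11, a fold of 4.61). The HL-60 value at 500 pM (log2 change 1.21, SE 0.51, adjusted p = 0.0386) rested on these few counts and was lost with limma-voom (adjusted p = 0.083), without either untreated library (0.0781 and 0.106) and without the second 500 pM library, where it was 0.74. DRAM1, a lysosomal membrane protein of autophagy, was at 21.3 and 22.4 CPM untreated, 24.3 and 21.1 at 11.1 pM and 30.7 and 29.9 at 100 pM in Molm-14 cells. HL-60 libraries held DRAM1 at 1.77 and 1.63 CPM untreated, 4.0 and 2.39 at 112.7 pM and 4.21 and 5.47 at 500 pM. It rose in both lines, by 0.47, SE 0.095 in Molm-14 and by 1.55, SE 0.19 from a low level in HL-60 at 500 pM. SPATA18, which takes part in removing damaged mitochondria, had 0 counts in 10 libraries, 1 in 1 Molm-14 library at 11.1 pM and 2 in 1 HL-60 library at 112.7 pM, and was not tested. At this depth its expression was not detectable.

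The 4 metabolic genes all rose by a fold over 2 in Molm-14 cells at 100 pM (3.29% of all genes). In HL-60 cells at 500 pM 3 were higher (35.8%), 1 of them by a fold over 2 (16.5%), and 0 lower (37.8%). FDXR, the mitochondrial reductase that passes electrons to ferredoxin, was at 18.5 and 18.0 CPM untreated, 19.3 and 18.9 at 11.1 pM and 44.4 and 42.3 at 100 pM in Molm-14 cells. HL-60 libraries held FDXR at 8.26 and 8.06 CPM untreated, 11.2 and 9.85 at 112.7 pM and 11 and 11.1 at 500 pM. In Molm-14 the 100 pM libraries were far above the others (log2 change 1.25, SE 0.061, adjusted p = 8.23e-12), and in HL-60 both doses lay modestly above the untreated libraries (0.36, SE 0.083 and 0.44, SE 0.081). TIGAR, a phosphatase that lowers fructose-2,6-bisphosphate and so slows glycolysis, was at 7.02 and 4.6 CPM untreated, 6.20 and 6.58 at 11.1 pM and 12 and 12.7 at 100 pM in Molm-14 cells. HL-60 libraries held TIGAR at 14.2 and 11.8 CPM untreated, 11.3 and 9.24 at 112.7 pM and 11.4 and 13.4 at 500 pM. The Molm-14 rise (log2 change 1.09, SE 0.15, adjusted p = 8.26e-06) had no counterpart in HL-60, where the 500 pM libraries overlapped the untreated ones, and the lower value at 112.7 pM (adjusted p = 0.0444) was lost with DESeq2, RLE factors or total counts alone (adjusted p = 0.166, 0.0799 and 0.112). SAT1, the acetyltransferase that starts polyamine breakdown, was at 11.3 and 10.3 CPM untreated, 13.3 and 14.3 at 11.1 pM and 27.2 and 23.8 at 100 pM in Molm-14 cells. HL-60 libraries held SAT1 at 31.4 and 32.7 CPM untreated, 41.6 and 44.8 at 112.7 pM and 76.3 and 72.7 at 500 pM. Its rise was 1.24, SE 0.079 in Molm-14 at 100 pM and 1.21, SE 0.060 in HL-60 at 500 pM, from a higher level in HL-60. CMBL, a cytosolic hydrolase, was at 5.41 and 4.90 CPM untreated, 5.63 and 6.66 at 11.1 pM and 13.0 and 12.1 at 100 pM in Molm-14 cells. HL-60 libraries held CMBL at 6.14 and 5.97 CPM untreated, 8.67 and 8.6 at 112.7 pM and 9.41 and 9.09 at 500 pM. It rose in both lines (1.29, SE 0.11 and, at 500 pM, 0.61, SE 0.11), with the 100 pM Molm-14 libraries highest.

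Among the 7 genes of signalling, protein turnover and membrane function, 6 were higher in Molm-14 cells (22.9% of all genes). In HL-60 cells at 500 pM 4 of the 7 were higher (35.8%) and 3 lower (37.8%). TRIM22, a ubiquitin ligase of antiviral defence that interferon also induces, was at 62.4 and 65.1 CPM untreated, 79.9 and 78.2 at 11.1 pM and 184 and 189 at 100 pM in Molm-14 cells. HL-60 libraries held TRIM22 at 4.59 and 4.16 CPM untreated, 9.98 and 9.85 at 112.7 pM and 15.8 and 16.1 at 500 pM. It climbed with each dose in both lines (log2 change 1.55, SE 0.041, adjusted p = 1.61e-15 in Molm-14 and 1.88, SE 0.077 in HL-60 at 500 pM), while every HL-60 library lay under every Molm-14 library. Of 11 other interferon-stimulated genes tested, 5 were higher (22.9% of all genes) and 0 lower (21.9%) in Molm-14 at 100 pM, whereas HL-60 cells at 500 pM had 10 higher (35.8%) and 1 lower (37.8%), and there the sum of the 12 listed went from 162 and 152.5 CPM to 313 and 288. Their part in the TRIM22 values was not tested. RPS27L, a ribosomal protein paralogue, was at 57.2 and 53.5 CPM untreated, 66.2 and 63.9 at 11.1 pM and 101 and 101 at 100 pM in Molm-14 cells. HL-60 libraries held RPS27L at 38.7 and 38.9 CPM untreated, 36.4 and 36.3 at 112.7 pM and 32.3 and 32.1 at 500 pM. It rose in Molm-14 (log2 change 0.87, SE 0.043, adjusted p = 8.22e-12) and fell slightly in HL-60 at 500 pM (log2 change −0.27, SE 0.049, adjusted p = 6.92e-05), a fall that was lost with scaling by total counts alone (adjusted p = 0.111). RPS27L is close in sequence to RPS27, and reads may be split between them. RPS27L also overlaps LACTB, TRIM22 overlaps TRIM5, FBXO22 overlaps NRG4 and ANKRA2 overlaps UTP15, so their values carry the same uncertainty. The same holds for TP53INP1 with NDUFAF6, which had a mean of 14.5 CPM and changed by 0.12 in Molm-14 (adjusted p = 0.180), for TIGAR with a gene at 9.80 CPM that changed by 0.32 (adjusted p = 0.0265), and for TRIAP1 with a gene at 0.344 CPM.

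FBXO22 and RAP2B also went opposite ways. FBXO22, the substrate receptor of a ubiquitin ligase, was at 53.4 and 53.2 CPM untreated, 52.9 and 55.4 at 11.1 pM and 58.7 and 59.7 at 100 pM in Molm-14 cells. HL-60 libraries held FBXO22 at 64.4 and 64.6 CPM untreated, 45.1 and 50.8 at 112.7 pM and 43.1 and 40.5 at 500 pM. The fall in HL-60 was clear at both doses (−0.42, SE 0.052 and −0.63, SE 0.053), whereas the small Molm-14 rise (log2 change 0.15, SE 0.051, adjusted p = 0.0229) was lost with DESeq2 (adjusted p = 0.0785) and without any 1 of the 4 libraries compared. RAP2B, a small GTPase, was at 33.8 and 31.2 CPM untreated, 31 and 32.1 at 11.1 pM and 40.4 and 39.8 at 100 pM in Molm-14 cells. HL-60 libraries held RAP2B at 37.8 and 39.1 CPM untreated, 36.5 and 33.8 at 112.7 pM and 34.3 and 32.3 at 500 pM. The Molm-14 rise was 0.30, SE 0.056, and the HL-60 fall at 500 pM (log2 change −0.21, SE 0.056, adjusted p = 0.00219) was lost with DESeq2 (adjusted p = 0.0676) and, at −0.03, with total counts alone. SUSD6, a membrane protein, was at 12 and 11.7 CPM untreated, 13.2 and 13.1 at 11.1 pM and 17.1 and 17.1 at 100 pM in Molm-14 cells. HL-60 libraries held SUSD6 at 14.8 and 13.8 CPM untreated, 15.9 and 17.1 at 112.7 pM and 25.5 and 22.2 at 500 pM. Treated libraries lay above untreated ones in both lines (0.53, SE 0.079 in Molm-14 and 0.74, SE 0.073 in HL-60 at 500 pM). NINJ1, which mediates rupture of the plasma membrane in dying cells, was at 22.8 and 19.9 CPM untreated, 20.1 and 18.8 at 11.1 pM and 23.3 and 19.8 at 100 pM in Molm-14 cells. HL-60 libraries held NINJ1 at 31.2 and 32.6 CPM untreated, 33.4 and 37.6 at 112.7 pM and 48.1 and 46.0 at 500 pM. Its Molm-14 groups overlapped (adjusted p = 0.877), and in HL-60 at 500 pM it rose (log2 change 0.55, SE 0.072, adjusted p = 1.30e-06). ANKRA2, an ankyrin repeat protein, rose from 8.09 and 7.92 to 12.2 and 12.7 CPM in Molm-14 and from 3.11 and 3.43 to 4.49 and 4.45 CPM in HL-60 cells at the higher doses.

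At nearly equal doses, 112.7 pM for HL-60 and 100 pM for Molm-14 cells, the change in HL-60 was smaller or opposite for most of the genes. The difference, taken by subtracting the log2 change of Molm-14 from the one of HL-60, was called below 0 for 24 of 34 genes, against 21% of all genes tested, and above 0 for TP53I11 alone, against 16.7%. Its median was −0.48 for these genes and −0.02 for all genes. Over all genes the balance depended on the scaling, with 2241 above and 2823 below 0 here, 2812 and 2248 with RLE factors and 2654 and 2369 with total counts alone, whereas the p53 target genes then had 21 below and 1 above 0 with either. The widest gaps were in EDA2R (difference −2.46, SE 0.45, adjusted p = 0.000279), TP53INP1 (difference −2.46, SE 0.67, adjusted p = 0.00702), ZMAT3 (difference −2.20, SE 0.099, adjusted p = 1.40e-11) and CYFIP2 (difference −1.66, SE 0.11, adjusted p = 3.16e-09). PLK2 (−1.57, SE 0.20), TIGAR (−1.43, SE 0.20), RRM2B (−1.27, SE 0.088) and ACER2 (−1.21, SE 0.40) followed at more than 1 on the log2 scale. TP53INP1 had at most 10 counts in the untreated and 112.7 pM HL-60 libraries, and without the second library at 112.7 pM its difference was −1.42 (adjusted p = 0.0937).

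**Figure D4:**
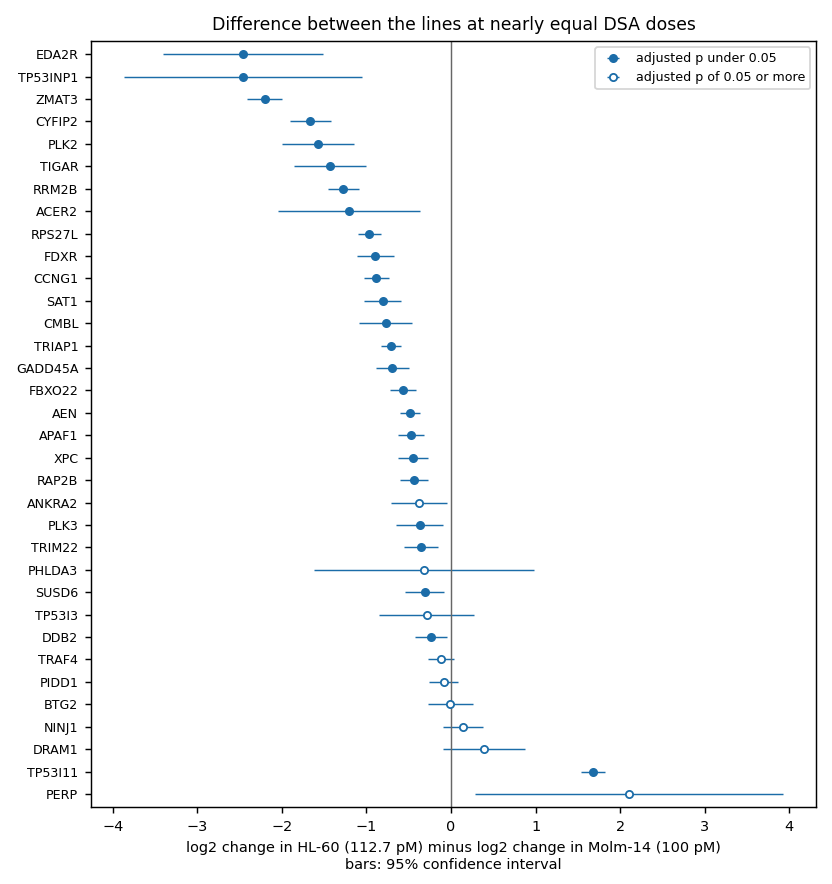
Log2 change in HL-60 cells at 112.7 pM minus log2 change in Molm-14 cells at 100 pM (horizontal axis) with its 95% confidence interval, for each of the 34 genes, from 8 libraries in a fit over all 12. Filled points passed an adjusted p of 0.05, 24 of them left of 0 and TP53I11 right of 0 at 1.68.

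For the 5 genes with printed elements the difference was below 0 in each, at −2.46 for EDA2R, −2.20 for ZMAT3, −0.88, SE 0.071 for CCNG1, −0.69, SE 0.093 for GADD45A and −0.24, SE 0.089 for DDB2. RRM2B, which also has an element, had −1.27. As 24 of all 34 genes were called below 0, this sign was not particular to genes with an element. The value of DDB2 was the weakest of these (adjusted p = 0.0412), and its adjusted p lay between 0.0583 and 0.265 with DESeq2, limma-voom, RLE factors, total counts alone, no filter or only the libraries compared. PLK3, SUSD6 and ACER2 (adjusted p = 0.0348, 0.0335 and 0.0235) were likewise lost with DESeq2 (0.213, 0.243 and 0.134), as was TRIM22 narrowly (0.0501). With 1 library left out DDB2 ranged up to an adjusted p of 0.195, PLK3 to 0.151, SUSD6 to 0.107 and ACER2 to 0.101. PERP, at 2.11 (adjusted p = 0.0654), passed with limma-voom (0.0316). Of the 9 genes whose difference did not pass, BTG2 (95% interval −0.27 to 0.26), PIDD1 (95% interval −0.26 to 0.08), TRAF4 (95% interval −0.27 to 0.03) and NINJ1 (95% interval −0.10 to 0.37) had narrow intervals that held 0. Those of PHLDA3 (95% interval −1.62 to 0.98), TP53I3 (95% interval −0.85 to 0.27) and DRAM1 (95% interval −0.09 to 0.88) held 0 and were wider. The unadjusted intervals of PERP (95% interval 0.28 to 3.93) and ANKRA2 (95% interval −0.71 to −0.05) left out 0, although neither gene passed after adjustment.

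Set against each other at the higher doses, 500 pM and 100 pM, the difference was called below 0 for 18 genes (30.3% of all genes tested) and above 0 for 10 (25.1%). The genes above 0 were PERP, TP53I11, BTG2, PHLDA3, DRAM1, TP53I3, NINJ1, TRIM22, PIDD1 and DDB2, led in well-counted genes by TP53I11 (2.91, SE 0.063) and BTG2 (2.04, SE 0.098). Here too PERP was tested only because its treated HL-60 groups passed the filter. The genes furthest below 0 were CYFIP2 (−2.47, SE 0.12), ZMAT3 (−2.27, SE 0.099) and EDA2R (−2.04, SE 0.44). The value of APAF1 was lost with DESeq2, RLE factors or total counts alone (adjusted p = 0.155, 0.0972 and 0.601) and that of ACER2 with DESeq2 (0.0993). PHLDA3 was lost without the first untreated or the second 500 pM HL-60 library (0.163 and 0.274), and TRIM22 without the second untreated one (0.0815). At the low doses, 112.7 pM and 11.1 pM, 7 genes lay below 0 (19.9%) and 9 above (15.4%), with AEN, CCNG1, FBXO22, RPS27L, RRM2B, TRIAP1 and ZMAT3 below, so that the share below 0 was close to that of all genes. With DESeq2 the calls of AEN (adjusted p = 0.259), FDXR (0.0876), RRM2B (0.0583) and PERP (0.0551) were lost, and leaving out 1 library took the adjusted p to as much as 0.114 for AEN, 0.200 for FDXR, 0.211 for TRAF4, 0.172 for DRAM1 and 0.101 for PERP. The median low-dose difference was 0.07 for the p53 target genes and −0.01 for all genes. Each of these contrasts uses the same untreated libraries. The doses of the last pair differ widely in pM, although each lay at the IC50 of its line in the study.

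Without DSA most of these genes were lower in HL-60 than in Molm-14 cells. Of 34 tested, 22 were lower, against 40.1% of all genes, and 10 higher, against 43.9%, and the median log2 ratio of HL-60 to Molm-14 was −0.60 where that of all genes was 0.06. By a fold over 2, 12 were lower (20.6%) and 3 higher (16.5%). The widest gaps were PHLDA3 (−7.65, SE 0.17), TP53INP1 (−5.15, SE 0.26), TRIM22 (−3.88, SE 0.060), DRAM1 (−3.70, SE 0.14), PLK2 (−3.41, SE 0.11) and BTG2 (−3.17, SE 0.075). In the untreated HL-60 libraries PHLDA3 had only 2 and 12 counts and TP53INP1 6 and 10. The size of these 2 gaps is less certain than the SE implies. The genes higher by a fold over 2 were SAT1 (1.57, SE 0.075), CYFIP2 (1.54, SE 0.084) and TIGAR (1.15, SE 0.14). On the TPM scale, which divides by transcript length and lets genes be compared, CCNG1 (131), RPS27L (102) and TRIAP1 (84.2) led the 35 genes in untreated Molm-14 cells, and TRIAP1 (79.1), CCNG1 (76.9) and RPS27L (76.5) in untreated HL-60 cells, as means of 2 libraries. PHLDA3 ranked 13 in Molm-14 at 18.6 TPM and 32 in HL-60 at 0.125 TPM.

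**Figure D5:**
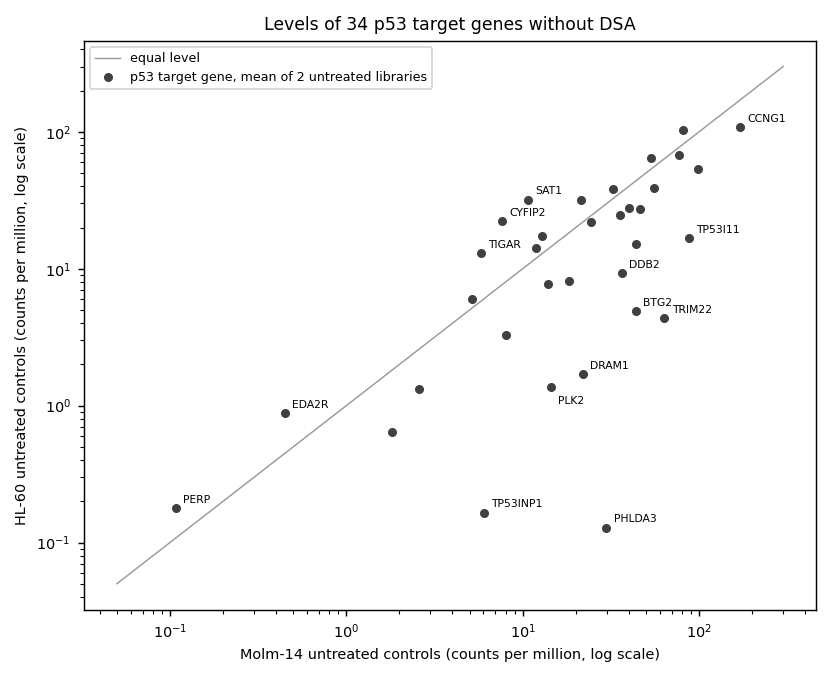
Mean CPM of the 34 p53 target genes in the 2 untreated HL-60 libraries (vertical axis, log scale) against the mean in the 2 untreated Molm-14 libraries (horizontal axis, log scale), with the line of equal level. PHLDA3 and TP53INP1 lie furthest under the line, and SAT1, CYFIP2 and TIGAR above it.

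Few of the genes passed at the lowest dose. At 11.1 pM in Molm-14 cells 4 were higher, against 0.969% of all genes tested, and 0 lower, against 0.238%, also at an unadjusted p under 0.05 and with DESeq2 and limma-voom. These were TRIM22 (log2 change 0.31, SE 0.042, adjusted p = 0.00106), RPS27L (log2 change 0.23, SE 0.044, adjusted p = 0.0108), DDB2 (log2 change 0.27, SE 0.053, adjusted p = 0.0131) and GADD45A (log2 change 0.31, SE 0.070, adjusted p = 0.0337), none with a fold over 2. DESeq2 called TRIM22 and RPS27L of these. Without the first untreated library 0 of the 4 passed, and without the second untreated or the first 11.1 pM library TRIM22 alone did. The median over the 34 genes was 0.11, against −0.01 for all genes. From 11.1 to 100 pM 30 genes were higher (19.6%) and 0 lower (18.5%, and 0 at an unadjusted p under 0.05 and with DESeq2 and limma-voom). From 112.7 to 500 pM in HL-60 cells 17 were higher (25.9%) and 6 lower (26.8%). When libraries were scaled by total counts alone, the median over all genes in HL-60 at 500 pM was 0.18, and 20 of the p53 targets were higher and 3 lower between the HL-60 doses. Against untreated cells 22 were then higher and 6 lower at 500 pM, with RAP2B and RPS27L no longer lower.

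Regulators of p53 were called in both directions. Of 14 tested, 6 were higher (22.9% of all genes) and 3 lower (21.9%) in Molm-14 at 100 pM, whereas HL-60 cells at 500 pM had 5 higher (35.8%) and 8 lower (37.8%). MDM2, the ligase that restrains p53 and is itself its target, was at 135 and 131 CPM untreated, 145 and 154 at 11.1 pM and 329.5 and 322 at 100 pM in Molm-14 cells. HL-60 libraries held MDM2 at 75.0 and 68.3 CPM untreated, 49.4 and 49.6 at 112.7 pM and 48.3 and 59.4 at 500 pM. It rose in Molm-14 (log2 change 1.29, SE 0.057, adjusted p = 2.15e-12) and fell in HL-60 at both doses (−0.53, SE 0.068 and −0.39, SE 0.067), with no overlap of treated and untreated libraries in either line. MDM4, its partner, rose in Molm-14 (0.41, SE 0.045) and fell in HL-60 at 112.7 pM (−0.46, SE 0.049). TP73, which encodes the relative p73, went from 0.536 and 0.543 to 3.32 and 3.10 CPM in HL-60 at 500 pM (log2 change 2.55, SE 0.18, adjusted p = 1.69e-10), against 46.7 and 46.5 CPM in untreated Molm-14 cells. Of 16 kinases and partners of the damage signal, 2 were higher (22.9%) and 9 lower (21.9%) in Molm-14 at 100 pM and 1 higher (35.8%) and 11 lower (37.8%) in HL-60 at 500 pM, with TOPBP1 (−0.48, SE 0.038) and the kinase CHEK1 (−0.61, SE 0.049) lower in Molm-14 and MRE11 (−0.57, SE 0.050) and ATR (−0.52, SE 0.052) lower in HL-60 cells.

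Other known p53 targets, from a list of 52, were mostly higher in Molm-14 cells. Of 51 tested, 37 were higher (22.9% of all genes) and 1 lower (21.9%) at 100 pM in Molm-14 cells, with a median of 0.42. At 500 pM in HL-60 cells 29 were higher (35.8%) and 12 lower (37.8%), with a median of 0.32. At nearly equal doses the difference was below 0 for 23 (21%) and above 0 for 5 (16.7%). CDKN1A, the inhibitor of cyclin-dependent kinases p21, was at 332 and 309.9 CPM untreated, 361 and 359 at 11.1 pM and 1008 and 1013 at 100 pM in Molm-14 cells. HL-60 libraries held CDKN1A at 0.563 and 0.373 CPM untreated, 1.49 and 1.21 at 112.7 pM and 19.6 and 20.3 at 500 pM. From near silence in HL-60 cells it rose by 5.47, SE 0.12 at 500 pM, and at 112.7 pM its change did not differ detectably from that of Molm-14 at 100 pM (95% interval −0.69 to 0.51). SESN1, a sestrin that restrains mTORC1, rose in Molm-14 from 37.5 and 35.9 to 86.7 and 90.5 CPM and stood at 6.22 and 5.41 and then 5.90 and 6.42 CPM in HL-60. SESN2, another sestrin, was the 1 gene lower in Molm-14 (log2 change −0.96, SE 0.045, adjusted p = 4.25e-12). PLXNB2, a semaphorin receptor, and CD82, a tetraspanin, rose in HL-60 at 500 pM (1.77, SE 0.042 and 1.74, SE 0.047).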

How the data were processed

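RNA from the 12 libraries was sequenced by the authors, and reads were trimmed with Trim Galore (0.60), aligned to hg38 with STAR (2.7) and quantified with RSEM (1.31) over GENCODE release 31, per the labels and the study's methods. A strand setting was not given in the sources used here. The deposited expected counts per gene were rounded to whole numbers and limited to protein-coding genes of GENCODE release 44 (levels 1 and 2) by identifier. Genes passing filterByExpr over the 6 groups were fitted with edgeR (4.0.16, R 4.3.3; quasi-likelihood test, TMM factors, all 12 libraries), with Benjamini-Hochberg adjustment over all 13422 genes and calls at an adjusted p under 0.05. A difference between lines is the contrast of their changes. The deposited TPM values served only to compare levels between genes, and the deposited FPKM values were not used. DESeq2 (1.42.0), limma-voom (limma 3.58.1), other scalings, no filter, the libraries compared alone, a replicate block and leaving out each library were alternatives.

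On simulated counts 98% or more of genes changed by 1 on the log2 scale were recovered, with 15 of 215 calls false in Molm-14 and 20 of 218 in HL-60. The simulation changed only 100 genes of each size, all with a control level over 1 CPM. It does not cover genes under that level or changes as widespread as in these data. Replicates differed by more than sampling noise (chi-square per degree of freedom 2.16 to 3.63). Library values are given for members whose change differed between lines or that led in either direction, and other genes are among the 4 of smallest p per list in each comparison. The members were taken as known targets without a threshold on values, but the decision to describe them, and the other lists, were made with earlier results of these data known, so the shares are no independent support. Results for 1 gene are not reported here.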

Additional observations from a re-analysis of the deposited data

Results flagged for a closer look

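For 25 of the 34 p53 target genes tested, the change in HL-60 cells at 112.7 pM differed from that in Molm-14 cells at 100 pM in a test of the difference itself (edgeR contrast, adjusted p under 0.05, 2 libraries per group). Of all genes tested, 21% lay below 0 and 16.7% above 0 in that test. Each value that follows is the log2 change of HL-60 less the one of Molm-14. Among repair genes it was −0.24 for DDB2, −0.45 for XPC and −1.27 for RRM2B. In cell cycle control it was −2.20 for ZMAT3, −1.57 for PLK2, −0.37 for PLK3, −0.88 for CCNG1 and −0.69 for GADD45A. Of the genes linked to cell death, EDA2R had −2.46, CYFIP2 −1.66, ACER2 −1.21, TRIAP1 −0.71, AEN −0.49 and APAF1 −0.47, and TP53I11 had 1.68, the only one above 0. TP53INP1, of autophagy, had −2.46. The metabolic genes had −0.89 for FDXR, −1.43 for TIGAR, −0.81 for SAT1 and −0.77 for CMBL. The remaining genes were RPS27L at −0.96, FBXO22 at −0.57, RAP2B at −0.44, TRIM22 at −0.36 and SUSD6 at −0.31. With DESeq2 the calls of DDB2, PLK3, SUSD6, ACER2 and TRIM22 were lost. Groups of 2 libraries were too small to look for a library standing apart within a group.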

How the results depend on the processing

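No called value of a single p53 target gene changed sign, but the balance of all genes called higher and lower turned round with the scaling in several comparisons. At 11.1 pM in Molm-14 cells the p53 target genes called higher numbered 4, 2 with DESeq2 and 0 to 3 with 1 library left out, and all genes called higher numbered 130, with DESeq2 86, without a filter 308, with only the libraries compared 208 and with 1 library left out 3 to 83. All genes lower there numbered 32, without a filter 160, with only the libraries compared 63 and with 1 library left out 1 to 19. Scaling by total counts alone gave 3376 genes lower in HL-60 at 500 pM (5075 otherwise) and 6304 higher (4802), 2107 lower and 4831 higher between the HL-60 doses (3591 and 3475) with 3 p53 target genes lower (6), and 2638 lower and 4538 higher in the difference at the higher doses (4067 and 3373). At 112.7 pM it gave 4231 higher and 2696 lower (3254 and 3683), and in the low-dose difference 2662 and 2085 (2069 and 2674). RLE factors gave 2812 above and 2248 below 0 at nearly equal doses (2241 and 2823) and 2623 and 2106 in the low-dose difference. The median over all genes shifted by up to 0.18 with total counts alone, a shift that its construction without TMM factors leaves in the values. At nearly equal doses limma-voom called 2 p53 target genes above 0 and leaving out 1 library gave 1 to 2. DESeq2 put 1723 of all genes below 0 there (2823) and 1589 in the low-dose difference (2674). The cause of these moves was otherwise not tested. Same-numbered libraries showed little common deviation over all genes (correlations −0.0697 to 0.0748). This measure cannot exclude that the numbers mark pairs, since a shared batch may affect only some genes. With the replicate block 32 p53 target genes were higher in Molm-14 at 100 pM and 20 higher and 8 lower in HL-60 at 500 pM. Of 340 results for single members, 338 kept their call under the block, 317 with DESeq2, 330 with limma-voom, 327 with RLE factors, 314 with total counts alone and 329 without a filter. With 2 libraries a group and HL-60 totals down to 21177424, changes of genes at a few counts, such as PERP, PHLDA3 and TP53INP1 in HL-60, are the least certain.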
